A study of Mus musculus with 11 samples.

Results

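Genes of the unfolded protein response, the integrated stress response and the cytosolic heat shock response were followed in mouse embryonic stem cells with and without the BMP receptor Bmpr1a. The set was given as 46 gene symbols, and a gene was kept where the array's annotation gives it a transcript cluster (a set of probes for one transcript) with a single symbol. By that rule 44 of the 46 were measured, among 19935 genes in all, and Gdf15 and Hsf1 were not analysed here. They were described in 3 branches: 17 genes of the ATF4 branch, 22 of the endoplasmic reticulum (ER) branch and 5 of the cytosolic heat shock branch.

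Total RNA was profiled on 11 one-colour Affymetrix arrays. The control was wild-type E14, an established mouse embryonic stem cell (ESC) line, with 3 arrays in ESC medium and 3 after 3 days in N2B27, a defined medium without serum that lets ESCs differentiate. The Bmpr1a-/- mutant had 2 arrays in ESC medium, numbered 2 and 3, and 3 after 3 days in N2B27; mutant array 1 in ESC medium was not analysed here. The labels name 3 mutant lines, C1-6, Fr124 and Fr88, without saying which array holds which, so the mutation and differences between cell lines cannot be told apart. Nor do they give the cultures behind the arrays of each group, so p-values rest on the spread of these particular arrays, and that spread may be technical. The series asks how the mutant differs from the control in each medium and how each genotype responds to N2B27.

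The 3 branches answer different kinds of protein stress. When unfolded proteins gather in the ER, the sensors PERK (Eif2ak3), IRE1 (Ern1) and ATF6 raise ER chaperones, folding enzymes and the machinery that removes misfolded proteins. PERK and other kinases, such as the amino acid sensor GCN2 (Eif2ak4), phosphorylate the initiation factor eIF2, which lowers general translation but favours translation of the transcription factor ATF4; ATF4 then raises genes for amino acid synthesis and transport and for the feedback and outcome of stress. The cytosolic heat shock response is driven by HSF1 and raises chaperones such as Hspb1, Hsph1 and Dnajb1.

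The promoters of the members carry different sequence motifs, and the sequences below show them for the genes the results turn on or that define a branch. The windows, from 250 bases before to 50 after each transcription start in RefSeq (build GRCm38.p6), covered 40 of the 46 members. The motif TGATGNAA, written for the C/EBP-ATF response element through which ATF4 acts, was found on either strand in 5 of 22 windows of the ATF4 branch (22.7%), in 1 of 19 of the ER branch (5.26%) and in 3.97% of all 32851 windows; the fifth gene of the ATF4 branch, not shown, was Vldlr. It lies in lines Chac1 to Herpud1 in capitals, 193 bases before the start in Chac1, 23 in Asns, 110 in Nupr1 and 112 in Herpud1, and 15 bases after the start in Trib3. The coordinates are chr2:119350992-119351241 (+) for Chac1, chr6:7693210-7693359 (-) for Asns, chr7:126625471-126625620 (-) for Nupr1, chr2:152344028-152344057 (-) for Trib3 and chr8:94386279-94386428 (+) for Herpud1.
Chac1: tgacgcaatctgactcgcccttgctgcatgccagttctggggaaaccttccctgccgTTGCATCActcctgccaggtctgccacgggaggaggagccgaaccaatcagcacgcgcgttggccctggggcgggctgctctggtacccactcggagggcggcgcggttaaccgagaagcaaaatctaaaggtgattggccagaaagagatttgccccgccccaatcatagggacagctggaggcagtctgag
Asns: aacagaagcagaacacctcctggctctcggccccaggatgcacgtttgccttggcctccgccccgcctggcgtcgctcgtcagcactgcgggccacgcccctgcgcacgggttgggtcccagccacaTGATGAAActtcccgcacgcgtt
Nupr1: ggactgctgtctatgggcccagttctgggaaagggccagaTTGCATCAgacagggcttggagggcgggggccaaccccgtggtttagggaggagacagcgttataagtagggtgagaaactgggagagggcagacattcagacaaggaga
Trib3: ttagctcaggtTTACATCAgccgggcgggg
Herpud1: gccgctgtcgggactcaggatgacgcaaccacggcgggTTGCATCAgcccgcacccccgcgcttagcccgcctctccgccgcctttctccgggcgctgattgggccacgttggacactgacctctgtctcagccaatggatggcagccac

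The ER stress response element, searched on both strands as CCAAT, 9 bases of any kind and CCACG, was found in 8 of the 19 windows of the ER branch (42.1%), in none of the ATF4 or heat shock windows and in 0.119% of all windows. The 8 genes were Calr, Canx, Creld2, Dnajc3, Hsp90b1, Hspa5, Pdia6 and Syvn1. It is in capitals below, 65 bases before the start in Hspa5, 126 in Creld2, and at 212 and again at 107 bases before the start in Hsp90b1. The sequences lie at chr2:34771940-34772089 (+) for Hspa5, chr10:86705445-86705694 (-) for Hsp90b1 and chr15:88819496-88819645 (+) for Creld2.
Hspa5: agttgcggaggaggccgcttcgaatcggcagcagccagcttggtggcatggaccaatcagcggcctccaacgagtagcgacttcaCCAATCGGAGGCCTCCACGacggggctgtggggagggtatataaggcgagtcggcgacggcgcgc
Hsp90b1: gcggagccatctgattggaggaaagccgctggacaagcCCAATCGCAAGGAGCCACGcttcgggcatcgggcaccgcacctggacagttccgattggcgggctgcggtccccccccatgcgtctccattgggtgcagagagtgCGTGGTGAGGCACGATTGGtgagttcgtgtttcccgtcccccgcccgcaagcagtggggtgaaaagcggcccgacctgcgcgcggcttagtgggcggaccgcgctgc
Creld2: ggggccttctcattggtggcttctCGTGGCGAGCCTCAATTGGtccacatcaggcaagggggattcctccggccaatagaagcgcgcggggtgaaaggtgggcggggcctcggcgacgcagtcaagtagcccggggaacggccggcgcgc

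The heat shock element, searched on both strands as GAA, TTC and GAA with 2 bases of any kind between neighbours, was found in Hsph1 alone among the members and in 0.603% of all windows; in Hsph1 it lies 16 or 37 bases after the start, according to the transcript, at chr5:149636287-149636316 (-). A match is a description of these letters, not evidence of a working site.
Hsph1: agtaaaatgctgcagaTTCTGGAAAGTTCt

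The deposited values are on a log2 scale and relative to a baseline of each cluster that the sources used here do not describe, so they compare arrays for one gene and give neither absolute levels nor an order between genes; a difference of 1 is a 2-fold change. Each comparison was fitted with limma across all 19935 genes, and genes with an adjusted p (Benjamini-Hochberg, over all of them) under 0.05 were called. Bmpr1a read 0.16 to 0.37 in the control and -0.03 and 0.00 in the mutant in ESC medium, and 0.61 to 0.76 against -0.14 to 0.15 in N2B27, where the difference was -0.70 (adjusted p = 0.00211); in ESC medium it was -0.27 (adjusted p = 0.145). All 14 pluripotent cell markers were lower in N2B27 in both genotypes, with mean values per array of 1.09 to 1.38 and -1.19 to -0.89 in the control and of 1.55 to 1.56 and -0.44 to -0.30 in the mutant. In N2B27, 6 of the 14 were higher in the mutant than in the control, against 4.1% of all genes. Of 15 fibroblast and feeder cell markers, 4 were higher and 1 lower with N2B27 in the control and 3 were higher in the mutant, while 4 were lower in the mutant than in the control in ESC medium. Over all genes 12.8% were higher and 13.3% lower with N2B27 in the control, and 14.9% higher in the mutant. In ESC medium 3.05% of all genes were lower in the mutant. In bulk RNA, fewer cells of a type and less RNA per cell cannot be told apart, and the part of these markers in the results was not tested.

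Control array 1 in ESC medium stood apart from arrays 2 and 3 of its group in these genes. Among the 3 arrays it was the highest in 21 of 22 ER members, against 40.5% of all genes, and the lowest in 15 of 17 ATF4 members, against 35.9% of all genes. Its median gap to the mean of the other arrays was 0.47 in the ER branch, -0.33 in the ATF4 branch and 0.12 in the heat shock branch. Values without it stand beside the results whose call, sign or size it changed most. Over all genes, mutant arrays 1 and 2 in N2B27 lay farther from their group mean than any other array (root mean square deviation 0.155 and 0.185, against 0.0774 to 0.135): array 2 was the highest of its group in 50.9% of genes and array 1 the lowest in 51.3%.

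**Figure D1:**
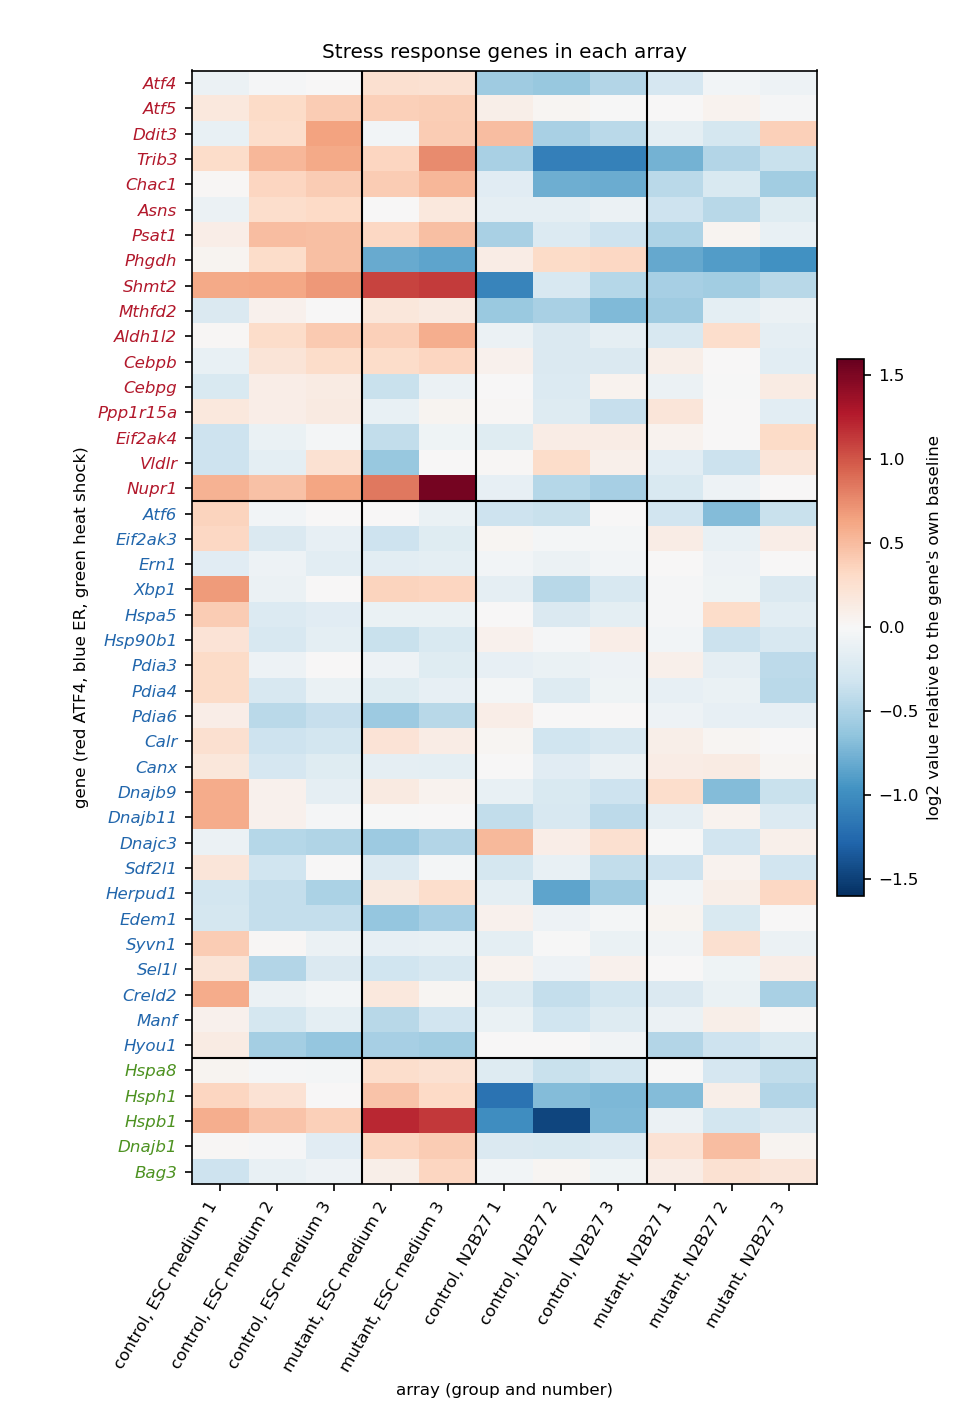
Log2 value relative to the cluster's baseline (colour) of the 44 members (rows, by branch) on each of the 11 arrays (columns, by group). Control array 1 in ESC medium reads above arrays 2 and 3 of its group in 21 of the 22 ER members, and many ATF4 members read lower in N2B27.

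In control cells, many ATF4 and heat shock genes fell in N2B27, and few ER genes changed. Of the 44 members 12 were lower and 2 higher; over all genes 13.3% were called lower and 12.8% higher. The ATF4 branch held 8 of the 12 decreases and no increase among 17 genes, with a median difference (N2B27 minus ESC medium) of -0.40. The heat shock branch had 3 of 5 lower with a median of -0.29. The ER branch had 1 lower and 2 higher of 22 with a median of -0.09, and the median over all genes was 0.02. Without control array 1 in ESC medium, 11 ATF4 members were lower, Asns, Aldh1l2 and Cebpb in addition, and 5 ER members were higher with a branch median of 0.07. With array weights 13 ATF4 members were lower, and with array numbers as a block 3 ER members were. How many of all genes were called under these settings was not counted.

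The mutant comparison rests on arrays that the control comparison does not use, and its decreases again lay in the ATF4 and heat shock branches. There 13 members were lower and 2 higher, against 10.3% and 14.9% of all genes. The ATF4 branch had 10 of 17 lower (median -0.38), the heat shock branch 3 of 5 lower (median -0.48) and the ER branch 2 of 22 higher and none lower (median 0.11), beside a median over all genes of 0.01. Of the members, 11 were called lower in both genotypes (Atf4, Atf5, Trib3, Chac1, Psat1, Shmt2, Mthfd2, Nupr1, Hspa8, Hsph1 and Hspb1) and Edem1 was called higher in both. As a share of each list, the 11 are 11 of 12 decreases in the control and 11 of 13 in the mutant. How many of all genes were called lower in both genotypes was not counted. Among the 11, the control calls of Hspa8 and Atf5 were lost under 11 and 5 settings. The mutant calls of Mthfd2, Hsph1, Psat1, Chac1 and Hspa8 were lost under 10, 5, 4, 1 and 1. Without mutant array 2 or 3 in ESC medium 8 members were called in the mutant, and without control array 1 in ESC medium, which enters that comparison only through the shared variance, 23 were, with 7 ER members higher and 2 lower. The ER branch had 6 higher and 2 lower with array weights. Shares of all genes called under these other settings were not counted, so added calls are not read as particular to these members. The ATF4 decreases in the mutant numbered 6 and 5 without mutant array 2 or 3 in ESC medium and 6 without mutant array 1 in N2B27.

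**Figure D2:**
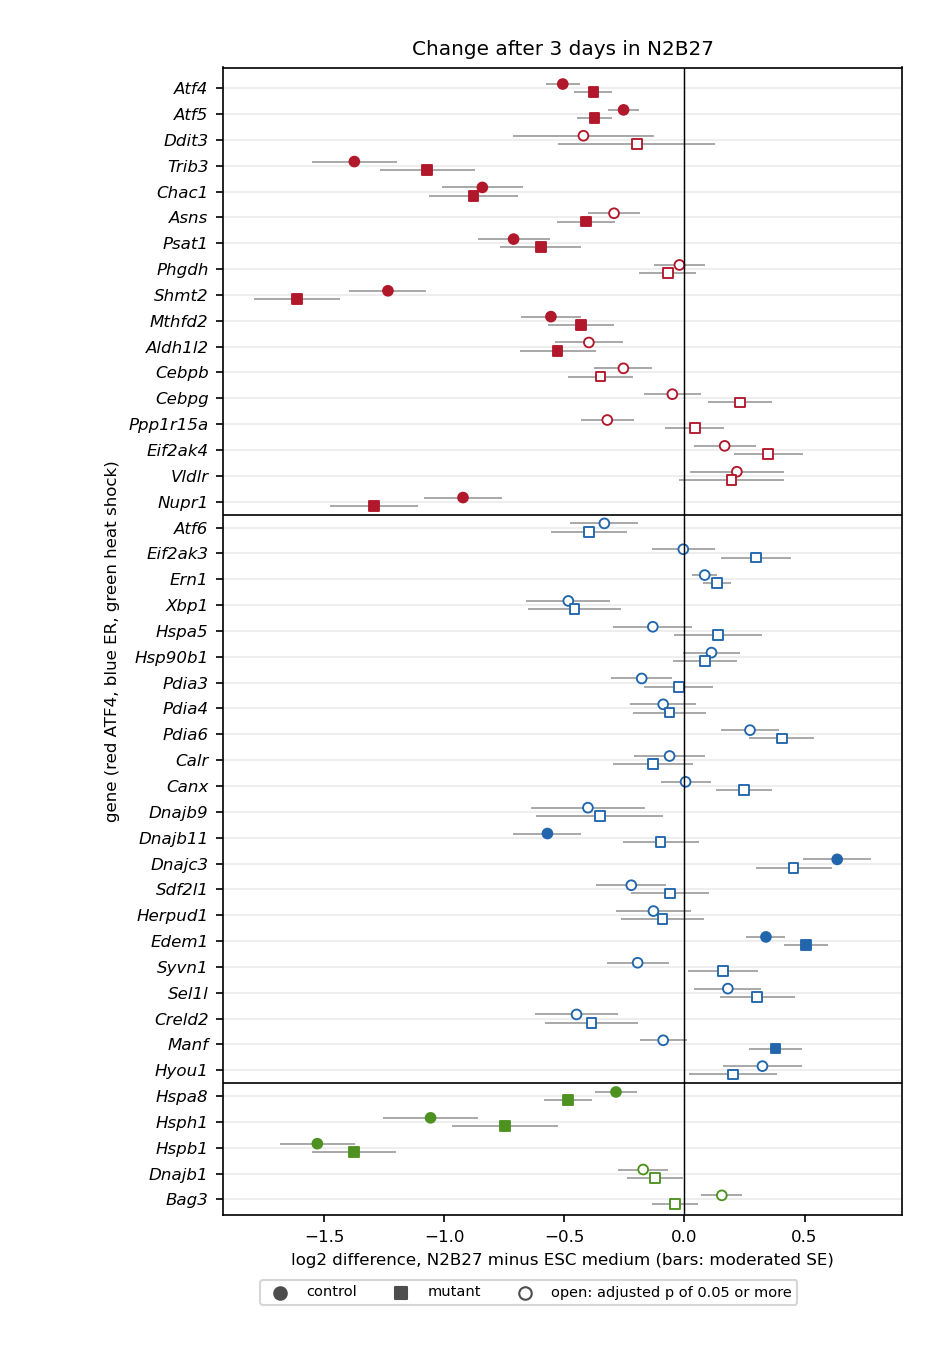
Difference between N2B27 and ESC medium (log2) of each of the 44 members in control cells and in mutant cells, by branch, with standard errors from limma. The points of the ATF4 branch lie mostly below 0 in both genotypes (branch medians -0.40 and -0.38), and those of the ER branch lie around 0 (-0.09 and 0.11).

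Atf4 itself, the transcription factor at the centre of the integrated stress response, read -0.10, -0.02 and 0.00 in the control ESC arrays and -0.57, -0.60 and -0.47 in the control N2B27 arrays. The groups did not overlap, and Atf4 fell by 0.51 (SE 0.07, adjusted p = 0.00067). In the mutant it read 0.25 and 0.25 in ESC medium and -0.27, -0.04 and -0.08 in N2B27. Again the groups did not overlap, and it fell by 0.38 (SE 0.08, adjusted p = 0.00583). Atf5, a related factor whose translation is also favoured when eIF2 is phosphorylated, fell by 0.25 in the control and by 0.37 in the mutant (SE 0.07 in each). Its control call was lost without control array 2 or 3 in either medium (adjusted p = 0.0523 to 0.0677).

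The stress-induced regulators downstream of ATF4 did not move alike. Trib3, a pseudokinase that feeds back on ATF4 and AKT signalling, read 0.29, 0.53 and 0.61 in the control ESC arrays and -0.52, -1.10 and -1.08 in N2B27, with no overlap, and fell by 1.38 (SE 0.18, adjusted p = 0.000433). The mutant arrays read 0.34 and 0.75 in ESC medium and -0.76, -0.46 and -0.36 in N2B27, and fell by 1.07 (SE 0.20, adjusted p = 0.00297). Ddit3, which encodes the pro-apoptotic factor CHOP, varied within its groups instead: -0.11, 0.28 and 0.64 in the control ESC arrays and 0.49, -0.51 and -0.43 in the control N2B27 arrays. These groups overlapped, and its difference was -0.42 (adjusted p = 0.375). The mutant arrays read -0.05 and 0.40 in ESC medium and -0.16, -0.28 and 0.38 in N2B27, a difference of -0.20 with overlapping groups.

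Nupr1, a small stress-induced chromatin-associated protein, was high in ESC medium and widest in the mutant. It read 0.55, 0.46 and 0.63 in the control ESC arrays and -0.13, -0.46 and -0.54 in N2B27, a fall of 0.92 (SE 0.16, adjusted p = 0.00251). The mutant arrays read 0.84 and 1.53 in ESC medium and -0.24, -0.08 and 0.00 in N2B27. The mutant groups did not overlap although the ESC arrays lay far apart, and the change was -1.29 (SE 0.18, adjusted p = 0.000672). Chac1, which degrades glutathione, read 0.02, 0.34 and 0.41 in the control ESC arrays and -0.18, -0.78 and -0.80 in N2B27, and 0.40 and 0.54 against -0.43, -0.25 and -0.55 in the mutant. It was lower in every N2B27 array than in every ESC array of its genotype, with changes of -0.84 and -0.88; without mutant array 3 in ESC medium the second of these had an adjusted p of 0.0559.

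Genes of amino acid and one-carbon metabolism differed from each other in size of change. Shmt2, the mitochondrial enzyme that splits serine into glycine and a one-carbon unit, read 0.61, 0.62 and 0.69 in the control ESC arrays and -1.06, -0.26 and -0.46 in N2B27. Mutant cells read 1.08 and 1.12 in ESC medium and -0.54, -0.56 and -0.45 in N2B27. The groups lay apart in both genotypes, and Shmt2 fell by 1.24 in the control (SE 0.16, adjusted p = 0.000443) and by 1.61 in the mutant (SE 0.18, adjusted p = 0.000179). Psat1, which makes phosphoserine, fell by 0.71 and 0.60, and Mthfd2, the next mitochondrial one-carbon enzyme, by 0.56 and 0.43. Asns, asparagine synthetase and a standard ATF4 target, read -0.10, 0.28 and 0.32 in the control ESC arrays and -0.14, -0.14 and -0.10 in N2B27. The lowest ESC array and the highest N2B27 array both read -0.10, and the difference of -0.29 was not called (adjusted p = 0.0755; -0.42 and 0.00678 without control array 1). In the mutant Asns read 0.01 and 0.17 in ESC medium and -0.33, -0.44 and -0.20 in N2B27, and fell by 0.41 (SE 0.12, adjusted p = 0.0313). Aldh1l2, a mitochondrial folate enzyme, also fell in the mutant, by 0.53 (adjusted p = 0.0336). Without mutant array 2 or 3 in ESC medium the adjusted p in the mutant was 0.0744 and 0.21 for Asns, 0.0832 and 0.154 for Psat1, 0.199 and 0.143 for Mthfd2, and 0.0813 and 0.216 for Aldh1l2. These 4 calls were also lost without mutant array 1 in N2B27 (adjusted p = 0.0566 to 0.0916). In all, the mutant call was lost under 10 settings for Mthfd2, 7 for Aldh1l2 and 4 each for Asns and Psat1.

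The 9 ATF4 members not called in the control had differences from -0.42 to 0.22, and the 7 not called in the mutant from -0.35 to 0.35. They include Phgdh, the first enzyme of serine synthesis, with -0.02 and -0.07; Cebpb and Cebpg, leucine zipper partners of ATF4; Ppp1r15a, which directs dephosphorylation of eIF2; the kinase Eif2ak4; and Vldlr, a lipoprotein receptor. Array numbers behaved as pairs in the control comparison, and with them as a block Asns (adjusted p = 0.0433) and Ppp1r15a (-0.32, adjusted p = 0.0248) were also called lower.

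**Figure D3:**
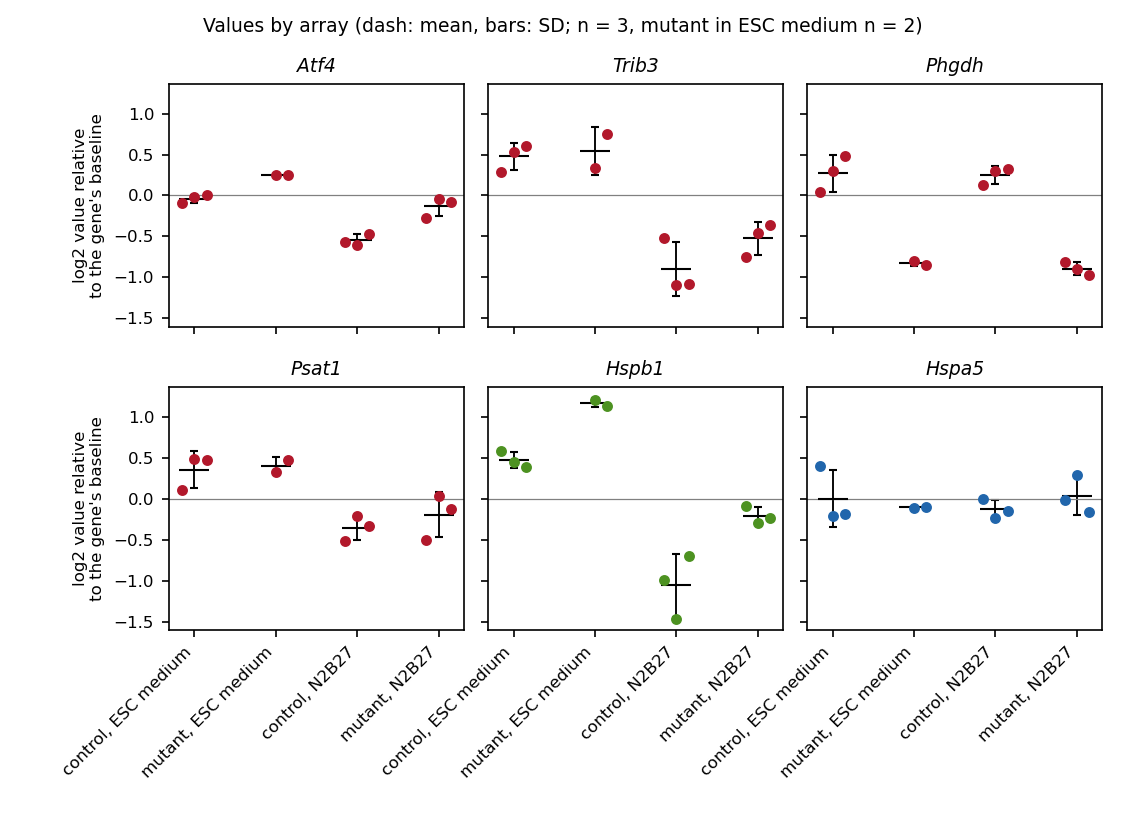
Log2 value relative to the cluster's baseline of Atf4, Trib3, Phgdh, Psat1, Hspb1 and Hspa5 on each array (points), with the mean (dash) and SD (bar) of each of the 4 groups. Trib3 and Hspb1 are lower in N2B27 in both genotypes, Phgdh is lower in the mutant in both media, and Hspa5 overlaps between all groups.

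Among the sensors and factors of the ER branch (Atf6, Eif2ak3, Ern1 and Xbp1) none was called with the medium in either genotype, though some calls appeared under other settings. Xbp1, the factor that IRE1 activates by splicing, read 0.69, -0.09 and 0.00 in the control ESC arrays and -0.15, -0.45 and -0.26 in N2B27. The N2B27 arrays lay below the ESC arrays, of which array 1 was far above the others, and the difference of -0.48 was not called (adjusted p = 0.0694; 0.021 with array numbers as a block). Without array 1 the difference was -0.24 (adjusted p = 0.125). In the mutant Xbp1 read 0.35 and 0.35 in ESC medium and -0.02, -0.07 and -0.23 in N2B27, a difference of -0.46 (adjusted p = 0.125) with no overlap, called under 4 other settings (adjusted p = 0.00751 to 0.0234). A gene-level value does not separate spliced from unspliced Xbp1. In the mutant, Eif2ak3 was called higher without control array 1 in ESC medium (0.30, adjusted p = 0.0333) and with array weights (0.0293), and Ern1 with array weights (0.0368).

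Hspa5, the ER Hsp70 chaperone BiP and the usual readout of ER stress, overlapped between media. It read 0.41, -0.21 and -0.18 in the control ESC arrays and 0.00, -0.23 and -0.15 in N2B27, with a difference of -0.13 (adjusted p = 0.675). Without control array 1 that difference had the opposite sign, 0.07 (adjusted p = 0.816). In the mutant it read -0.11 and -0.10 in ESC medium and -0.02, 0.29 and -0.17 in N2B27, with a difference of 0.14 (adjusted p = 0.69). The chaperones and folding enzymes Hsp90b1, Pdia3, Pdia4, Pdia6, Calr, Canx, Hyou1 and Sdf2l1 were not called in either genotype. Without control array 1 in ESC medium, however, Hyou1 (0.57), Pdia6 (0.44) and Sel1l (0.36), the last a scaffold of ER-associated degradation, were called higher in N2B27 in the control (adjusted p = 0.00106, 0.00219 and 0.0218). The same setting, through the shared variance, called Pdia6 (0.41), Sel1l (0.30), Canx (0.25), Dnajc3 (0.45) and Eif2ak3 higher and Xbp1 and Creld2 lower in the mutant.

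The called ER genes were Edem1, Dnajc3, Manf and Dnajb11. Edem1, which directs misfolded glycoproteins to degradation, read -0.29, -0.38 and -0.38 in the control ESC arrays and 0.07, -0.08 and -0.03 in N2B27. Mutant cells read -0.62 and -0.53 in ESC medium and 0.04, -0.24 and 0.00 in N2B27. Within each genotype every N2B27 array was higher than every ESC array. The rise was 0.34 in the control (SE 0.08, adjusted p = 0.0118) and 0.51 in the mutant (SE 0.09, adjusted p = 0.00255). Dnajc3, an inhibitor of eIF2 kinases that also serves as an ER co-chaperone, read -0.09, -0.45 and -0.48 in the control ESC arrays and 0.52, 0.11 and 0.25 in N2B27. It rose by 0.64 (SE 0.14, adjusted p = 0.00815) in the control; in the mutant its difference of 0.45 was not called, with -0.58 and -0.47 in ESC medium and 0.00, -0.30 and 0.09 in N2B27. Manf, a secreted ER-stress-inducible factor, rose in the mutant by 0.38 (SE 0.11, adjusted p = 0.0288), from -0.44 and -0.30 to -0.10, 0.09 and 0.02. In the control it read 0.07, -0.28 and -0.15 in ESC medium and -0.10, -0.32 and -0.21 in N2B27, where the groups overlapped. The mutant call of Manf was lost without mutant array 2 or 3 in ESC medium (adjusted p = 0.211 and 0.0628) or in N2B27 (0.061 and 0.0733). Dnajb11, a co-chaperone of Hspa5, fell in the control by 0.57 (SE 0.14, adjusted p = 0.0138). Control array 1 in ESC medium read 0.59 for it, against 0.07 and -0.01 in the other arrays, which enlarged the fall. The call held without that array. In the mutant Dnajb11 was not called.

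The cytosolic chaperones held the largest decrease of the 44 members in the control. Hspb1, the small heat shock protein HSP27, read 0.59, 0.45 and 0.38 in the control ESC arrays and -0.99, -1.47 and -0.70 in N2B27, and fell by 1.53 (SE 0.16, adjusted p = 0.000135). In the mutant it read 1.21 and 1.13 in ESC medium and -0.09, -0.29 and -0.24 in N2B27, and fell by 1.38 (SE 0.18, adjusted p = 0.000377). Within each genotype the media did not overlap. Hsph1, the Hsp110 nucleotide exchange factor for Hsp70, read 0.35, 0.23 and 0.00 in the control ESC arrays and -1.18, -0.69 and -0.72 in N2B27, and fell by 1.06 (SE 0.20, adjusted p = 0.00321). In the mutant the ESC arrays read 0.46 and 0.31 and the N2B27 arrays -0.70, 0.09 and -0.47. Array 2 in N2B27 lay nearest to the ESC arrays, and the change was -0.75 (SE 0.22, adjusted p = 0.0315). The call was lost without mutant array 2 or 3 in ESC medium (adjusted p = 0.185 and 0.0961) and without array 1 or 3 in N2B27 (0.0849 and 0.0911).

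Hspa8, the constitutive cytosolic Hsp70, changed less. It read 0.04, -0.02 and -0.03 in the control ESC arrays and -0.21, -0.36 and -0.30 in N2B27, and fell by 0.29 (SE 0.09, adjusted p = 0.0392). In the mutant it read 0.28 and 0.24 in ESC medium and -0.01, -0.27 and -0.40 in N2B27, and fell by 0.48 (SE 0.10, adjusted p = 0.00534). It is the mean of 3 clusters that disagreed in the mutant, where 2 of them differed by -0.31 and the third by -0.83; in the control all 3 lay between -0.29 and -0.28. The control call was lost under 11 settings, among them without control array 1 in ESC medium (adjusted p = 0.112). Dnajb1, an Hsp40 co-chaperone, and Bag3, a nucleotide exchange factor that links Hsp70 to autophagy, were not called with the medium in either genotype.

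**Figure D4:**
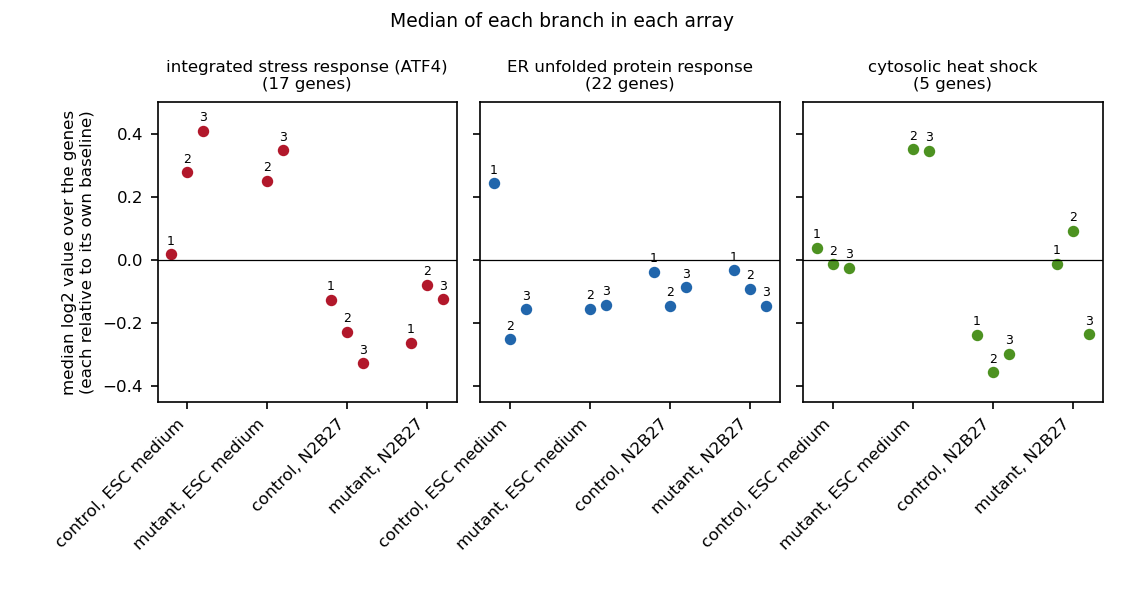
Median log2 value relative to baseline over the measured members of each branch (17 ATF4, 22 ER, 5 heat shock) on each of the 11 arrays, by group. The ATF4 medians are 0.02 to 0.41 in the ESC arrays and -0.33 to -0.08 in the N2B27 arrays, while control array 1 in ESC medium has the one ER median above 0 (0.24).

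Between genotypes, few members differed, and Phgdh stood out in both media. In ESC medium 2 of the 44 members were higher in the mutant and 1 lower, against 3.09% and 3.05% of all genes. In N2B27, 4 were higher and 1 lower, against 4.1% and 1.64%. Increases made up 9.09% of the members in N2B27 and 4.55% in ESC medium, and no test was made of either. Dnajb1 and Herpud1, among the increases in N2B27, lie on chromosome 8, where 25.3% of genes were called higher in that medium. Fitted on the N2B27 arrays alone, 0 members were called higher. In ESC medium Phgdh alone was called without control array 2 or 3 or mutant array 3, and 5 members were called without mutant array 2 in N2B27; in N2B27, 3 were called without control array 2 or 3.

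Phgdh read 0.04, 0.30 and 0.48 in the control ESC arrays and -0.80 and -0.85 in the mutant ESC arrays. In N2B27 it read 0.12, 0.30 and 0.33 in the control and -0.82, -0.90 and -0.97 in the mutant. All 5 mutant arrays lay below all 6 control arrays, and the differences (mutant minus control) were -1.10 (SE 0.12, adjusted p = 0.000824) and -1.14 (SE 0.11, adjusted p = 0.000561). Phgdh rests on 1 single-symbol cluster, and a further cluster annotated to several symbols was not used. On that single-symbol cluster, the call held under each of the 19 alternative settings tried in either medium. The later enzymes of serine synthesis did not share it: Psat1 overlapped between genotypes, and Psph, phosphoserine phosphatase, had uncalled differences of -0.12 and -0.23.

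Atf4 was higher in the mutant in N2B27, by 0.42 (SE 0.07, adjusted p = 0.00994). All 3 mutant arrays there, at -0.27 to -0.04, lay above all 3 control arrays, at -0.60 to -0.47. In ESC medium the mutant arrays (both 0.25) also lay above the control arrays (-0.10 to 0.00), but the difference of 0.29 was not called (adjusted p = 0.0645). Fitted on the compared groups alone, the N2B27 difference was not called (adjusted p = 0.0651) and the ESC difference was (0.0414), as it was under 4 other settings (0.0108 to 0.0413). The other members of the branch differed among themselves. In ESC medium the mutant arrays lay above the control arrays in Shmt2 (0.46), Mthfd2 (0.22) and Cebpb (0.20), all uncalled; Shmt2 was called with the compared groups alone (adjusted p = 0.0131) and without control array 1 in N2B27 (0.00863). In the same medium the mutant arrays of Ppp1r15a lay below all control arrays, uncalled. There Ddit3 differed by -0.09 and Asns by -0.08, with overlapping arrays (-0.28 and -0.21 without control array 1). In N2B27 Ddit3 differed by 0.13 with overlapping arrays, uncalled. Asns differed by -0.20, also uncalled, with every mutant array below every control array, opposite to Atf4. Mthfd2 was called higher there with array weights (adjusted p = 0.00899) and without mutant array 1 (0.0224), and Trib3 with array weights (0.0238). The branch median was 0.07 in ESC medium and 0.11 in N2B27, beside medians of -0.01 and 0.00 over all genes. Nupr1 differed by 0.64 in ESC medium, uncalled (adjusted p = 0.0762); without mutant array 2 it differed by 0.98 and was called (0.0219), as it was with array weights (0.0203).

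Hspb1 was higher in the mutant in both media, by 0.70 in ESC medium (SE 0.18, adjusted p = 0.0458) and 0.85 in N2B27 (SE 0.16, adjusted p = 0.0139). In each medium every mutant array lay above every control array, at 1.13 and 1.21 against 0.38 to 0.59 and at -0.29 to -0.09 against -1.47 to -0.70. The ESC call was lost without any one of the 5 ESC arrays (adjusted p = 0.0535 to 0.277) and under several other settings, and the N2B27 call when fitted on the N2B27 arrays alone (adjusted p = 0.0748). Bag3 read -0.34, -0.12 and -0.08 in the control ESC arrays and 0.10 and 0.35 in the mutant ESC arrays. There it was higher by 0.40 (SE 0.10, adjusted p = 0.0371), a call lost under 11 settings. Leaving out any one of the 5 ESC arrays ended the call (adjusted p = 0.0539 to 0.294). In N2B27 Bag3 read -0.04, 0.03 and -0.06 in the control and 0.12, 0.24 and 0.19 in the mutant, without overlap but uncalled. The heat shock branch had medians of 0.40 in ESC medium and 0.49 in N2B27 over its 5 genes. Hspa8 contributed uncalled differences of 0.26 and 0.06; in ESC medium 2 of its clusters differed by 0.13 and 0.14 and the third by 0.51.

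Dnajb1 and Herpud1, the latter an ER membrane protein of ER-associated degradation, were called higher in the mutant in N2B27 and not in ESC medium. Dnajb1 read -0.24, -0.25 and -0.21 in the control and 0.23, 0.50 and 0.04 in the mutant there, a difference of 0.49 (SE 0.10, adjusted p = 0.0255). In ESC medium it read 0.02, -0.01 and -0.19 in the control and 0.35 and 0.40 in the mutant, a difference of 0.44 (adjusted p = 0.0549). The mutant arrays lay above the control arrays in both media. Herpud1 read -0.16, -0.84 and -0.57 in the control and -0.04, 0.09 and 0.33 in the mutant in N2B27, a difference of 0.65 (SE 0.16, adjusted p = 0.0409). In ESC medium it read -0.29, -0.39 and -0.50 in the control and 0.16 and 0.28 in the mutant, a difference of 0.61 (adjusted p = 0.0741). The call of Dnajb1 was lost without any one of the control N2B27 arrays (adjusted p = 0.067 to 0.0805) and that of Herpud1 without control array 2 or 3 (0.113 and 0.135) or mutant array 2 or 3 (0.0641 and 0.104) in N2B27, among others. With the compared groups alone both N2B27 calls were lost while both ESC differences were called (adjusted p = 0.0329 for Dnajb1 and 0.0164 for Herpud1); Dnajb1 was called in ESC medium under 4 further settings and Herpud1 under 3. The 2 media were not shown to differ for either gene, since the interaction was uncalled.

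Dnajb1, Herpud1 and Calr are the 3 measured members on chromosome 8. Of 955 chromosome 8 genes, 15.7% were higher in the mutant in ESC medium and 25.3% in N2B27, against 1.66% and 2.75% of genes on the other autosomes. The median difference of chromosome 8 genes was 0.12 in ESC medium and 0.17 in N2B27. The part of the chromosome in the differences of these members was not tested. Calr, an ER lectin chaperone, differed by 0.22 in N2B27, uncalled, and in ESC medium was called higher, by 0.49 (adjusted p = 0.0314), when control array 1 was left out.

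No other ER member was called by genotype, though the arrays of some lay apart. In N2B27 Hyou1 read -0.06 to 0.00 in the control and -0.47 to -0.24 in the mutant, a difference of -0.33, uncalled (called without control array 1 in ESC medium, adjusted p = 0.0246). Canx (0.19), Hsp90b1 (-0.26) and Pdia6 (-0.15) also did not overlap there and were uncalled. Nor did Dnajc3, lower in the mutant, or Dnajb11 and Manf, higher in it, all uncalled. How often arrays lie apart over all genes was not counted in either medium. No genotype difference is read from uncalled genes whose arrays lie apart. In ESC medium none of 22 was called by limma, with 3 at an unadjusted p under 0.05, and the branch median was -0.15; without control array 1 it was -0.01. Hspa5 differed by -0.11 and 0.16 in ESC medium and N2B27, and Xbp1 by 0.15 and 0.18, all uncalled; without control array 1 the ESC differences were 0.09 for Hspa5, of opposite sign, and 0.40 for Xbp1 (adjusted p = 0.0604). Edem1 did not overlap in ESC medium (-0.22) and was called lower with array weights (adjusted p = 0.049). The mutant arrays of Pdia3, Pdia6, Manf and Syvn1 also lay below all control arrays in that medium, uncalled. Array numbers behaved as pairs in N2B27, and with them as a block Dnajc3 was called lower in the mutant there (-0.37, adjusted p = 0.0454), which brought the decreases to 2.

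**Figure D5:**
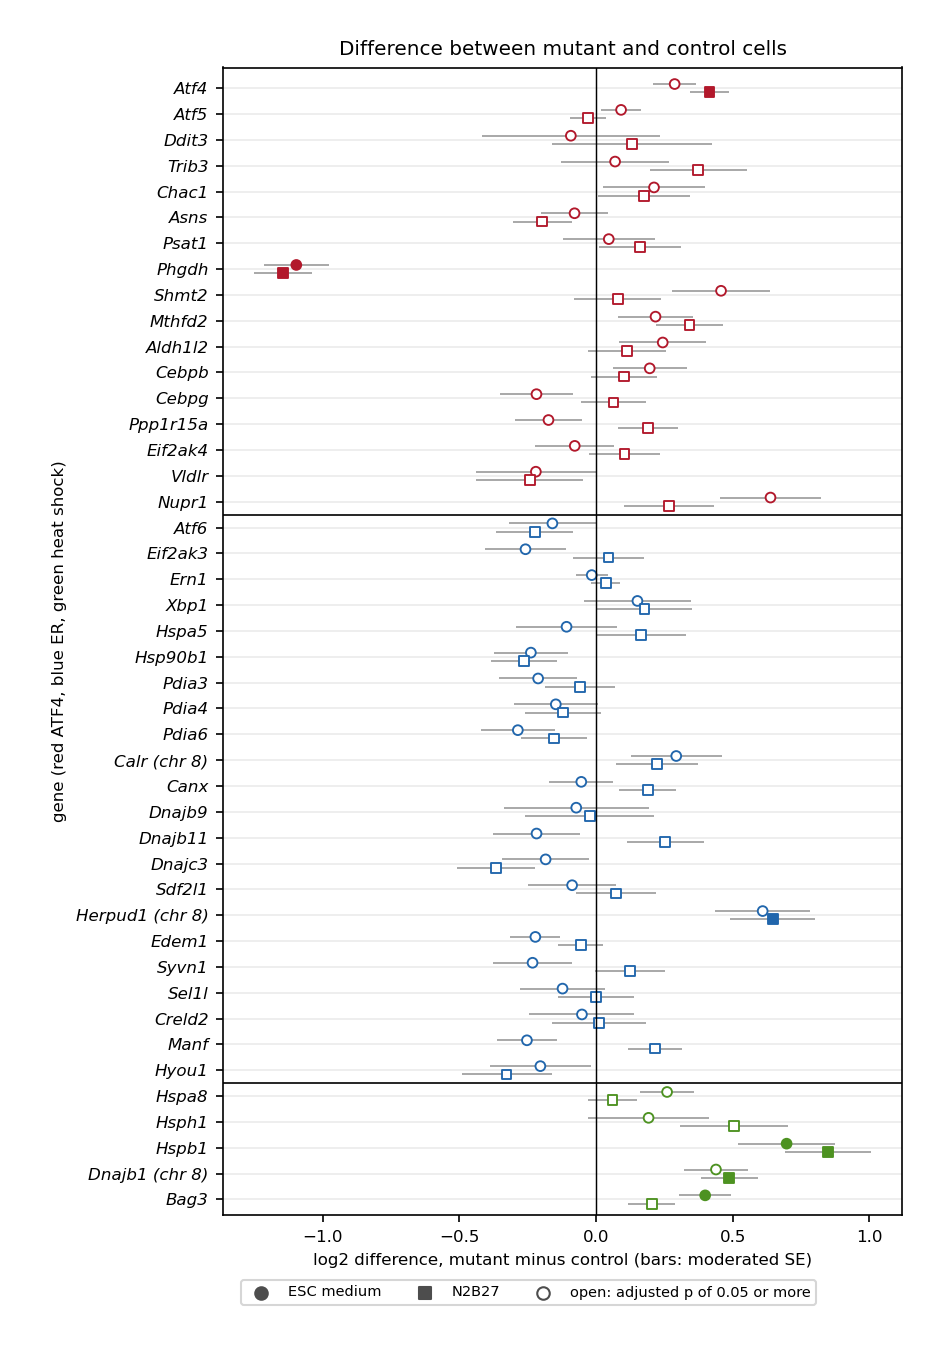
Difference between mutant and control (log2) of each of the 44 members in ESC medium and in N2B27, by branch, with standard errors from limma. Phgdh lies apart at -1.10 and -1.14, the 5 heat shock genes lie above 0 in both media (Hspa8 by 0.06 in N2B27), and most other members lie near 0.

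Whether the response to N2B27 differed between genotypes was tested as an interaction. None of the 44 members was called by limma, and 1 had an unadjusted p under 0.05; over all genes 1.57% were called higher and 0.552% lower. That member was Manf, with 0.47 (SE 0.15, adjusted p = 0.167). Without control array 1 in N2B27, Shmt2 was called, with -0.61 (adjusted p = 0.0286). The other differences ran from -0.38 to 0.47.

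Related genes of each pathway that were not among the members gave the following counts. Of 41 other ATF4 pathway genes, 19 were lower and none higher in N2B27 in the control (median -0.33), and 21 were lower and 3 higher in the mutant (median -0.37); lower calls made up 46.3% and 51.2% of the list, against 13.3% and 10.3% of all genes. Slc7a1, a cationic amino acid transporter, fell by 1.76 and 1.64, and Cth, which makes cysteine, by 1.07 and 1.00. Sesn2, a leucine sensor of the mTORC1 pathway, fell by 1.20 in the control (-0.53 in the mutant, uncalled), and Atf3, a stress-induced repressor, rose by 0.98 in the mutant (-0.02 in the control, uncalled). Of these 41 genes, 4 were higher in the mutant in ESC medium, led by Ndrg1 (1.05), Gpt2 (0.90) and Eif4ebp1 (0.42). In N2B27, 2 were higher, Atf3 (0.77) and Eif4ebp1 (0.32), and none was lower in either medium. Higher calls made up 9.76% and 4.88% of the list, against 3.09% and 4.1% of all genes. Gpt2 and Eif4ebp1 lie on chromosome 8. The call of Cth in the mutant was lost under 3 settings, those of Eif4ebp1 under 2 in ESC medium and 3 in N2B27, and that of Atf3 in N2B27 under 4.

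Of 42 other ER folding and quality control genes, 4 were higher and 6 lower in N2B27 in the control (median 0.04), and 4 were higher and 1 lower in the mutant (median 0.02). At 9.52% higher and 14.3% lower in the control and 9.52% and 2.38% in the mutant, these shares were near or below those of all genes. Ssr2, a subunit of the translocon-associated complex, fell by 0.90 and 0.95. The membrane-bound factor Creb3l2 rose by 0.98 in the control, and its relative Creb3 rose by 0.88 in the mutant, as did the disulfide reductase Dnajc10, by 0.54. Sil1, the exchange factor of Hspa5, rose by 0.47 in the control. Between genotypes 1 was higher (Spcs3, 0.47, on chromosome 8) and 2 lower (Creb3, -0.77, and Dnajc10, -0.35) in ESC medium, and 2 were lower in N2B27 (Creb3l2, -0.80, and Sil1, -0.59). These are 2.38% higher and 4.76% lower in ESC medium and 4.76% lower in N2B27, against 3.09%, 3.05% and 1.64% of all genes. The call of Dnajc10 was lost under 14 settings (adjusted p = 0.0502 to 0.327), that of Spcs3 under 5 (0.0534 to 0.124) and that of Sil1 under 3 in each comparison. Control array 1 in ESC medium was the highest of its group in 36 of these 42 genes.

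Of 38 other chaperone genes, cytosolic or mitochondrial apart from the ER collagen chaperone Serpinh1, 14 were lower and 3 higher in N2B27 in the control (median -0.08), and 10 were lower and 5 higher in the mutant (median -0.11), with 36.8% and 26.3% lower against 13.3% and 10.3% of all genes. Hspa4l, a relative of Hsph1, moved opposite to Hsph1 and rose by 1.13 and 1.01. Dnajc7 fell by 0.77 and Dnajb4 rose by 0.71 in the control (-0.39 and 0.64 in the mutant, both called), and the small heat shock protein Cryab rose by 1.35 and Serpinh1 by 1.11 in the mutant. Between genotypes in ESC medium Dnaja2 (0.43, on chromosome 8) was higher and Cryab (-1.04) and Serpinh1 (-0.84) were lower. In N2B27 Dnaja2 (0.63) and Dnajc7 (0.47) were higher. These are 2.63% higher and 5.26% lower in ESC medium and 5.26% higher in N2B27, against 3.09%, 3.05% and 4.1% of all genes. The ESC calls of Cryab and Dnaja2 were each lost under 4 settings, and that of Hspa4l in the mutant under 1.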

How the data were processed

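The members and gene lists were chosen with earlier results of these data known. The authors' values are log2 signals per transcript cluster, made, per the submitters' processing notes, with Affymetrix Expression Console 1.2 and RMA; base 2 is inferred from RMA's usual output. The deposited values are relative to a baseline per cluster, which the sources used here leave undescribed. Of 28815 clusters 21780 have 1 symbol, 1605 several and 5430 none; clusters with 1 symbol were averaged per gene, which gave 19935 genes (998 from several clusters). All 11 arrays entered 1 limma fit (limma 3.58.1, R 4.3.3; 4 group means, 7 residual degrees of freedom, no filter on low values), with p-values adjusted by Benjamini-Hochberg over all genes. The scripts were tested on simulated data. Precision is limited by how few arrays there are.

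The genes given with a value in every array are up to 5 called members per direction with the largest differences in each comparison, and Atf4, Ddit3, Asns, Xbp1, Hspa5 and Hspa8; of each pathway list up to 3 called genes per comparison are named, and other members named were added after their values were seen. Array numbers come from the titles, which do not say what they mark. Deviations of same-numbered arrays from their group means correlated at 0.256, 0.430 and 0.158 between genotypes in N2B27 and at 0.138, 0.181 and 0.131 between media in the control. Differently numbered arrays gave -0.323 to 0.0792 in N2B27 and -0.194 to 0.0708 in the control. Deviations within a group sum to 0, which ties these values together. The numbers were read as pairs in both comparisons, but the calls come from the fit without a block for them and ignore any pairing. Some results with such a block are given beside them. Of the 14 primitive endoderm markers, 1 and 3 were higher in N2B27 in the control and the mutant (7.14% and 21.4%). Of the 14 neural progenitor markers, 2 and 4 were higher (14.3% and 28.6%) and 1 was lower in each genotype (7.14%). Over all genes 12.8% and 14.9% were higher and 13.3% and 10.3% lower.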

Additional observations from a re-analysis of the deposited data

Results flagged for a closer look

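Serpinh1, the collagen chaperone of the ER and one of the related chaperone genes, responded differently to N2B27 in the 2 genotypes: its mutant-minus-control difference was larger in N2B27 than in ESC medium by 0.78 (SE 0.14, limma adjusted p = 0.0223). It read -0.12, -0.06 and 0.00 in the control ESC arrays and -0.90 and -0.90 in the mutant ESC arrays, then 0.18, 0.20 and 0.44 in the control and 0.06, 0.21 and 0.38 in the mutant in N2B27. The genotypes lay apart in ESC medium and overlapped in N2B27. The call was lost without any one of 5 arrays, with adjusted p-values from 0.061 to 0.119 and values from 0.74 to 0.78. Fibroblast and feeder markers averaged 0.00 to 0.07 per array in the control and -0.41 to -0.37 in the mutant in ESC medium. Their medians per array were closer, at -0.07 to 0.00 and -0.17 to -0.08. Of the 15 markers, 6 had a mutant-minus-control difference above 0 in that medium. The part of these markers in the result was not tested.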

How the results depend on the processing

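No called member reversed its direction under any of the 19 alternative settings per comparison (18 for the interaction). Counting settings that kept the gene, 12 of 14 calls held in all of them for the medium in the control and 7 of 15 in the mutant. For the genotype Phgdh alone held, 1 of 3 in ESC medium and 1 of 5 in N2B27. Genotype in ESC medium, 3 members called (2 higher, 1 lower): 7 (6 higher) with the compared groups alone in the fit, 10 (8 higher, 2 lower) with array weights, and 1 higher with genes of 1 cluster or without chromosomes 8, X and Y. Genotype in N2B27, 5 called (4 higher): 1 (0 higher) with the compared groups alone and 3 (2 higher) without chromosomes 8, X and Y. The last setting leaves out Dnajb1 and Herpud1, which lie on chromosome 8, so the loss of their calls was fixed in advance. For the medium, array weights gave 13 ATF4 decreases in place of 8 and 4 higher in place of 2 in the control, and 24 in place of 15, with 7 higher, in the mutant; genes of 1 cluster gave 1 higher in the control. The setting with genes of 1 cluster leaves out Dnajc3, Hspa8, Hspb1 and Pdia4, so none of them could be called in it. The causes of the other changes were not tested. Calls over all genes were not counted under any alternative setting, including those that leave out an array. Whether the added or lost calls are particular to these members is therefore not known.

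Leaving out each array in turn gave 1 to 5 members called (0 to 4 higher, 1 lower) for the genotype in ESC medium, 3 to 6 (2 to 5 higher, 1 to 2 lower) for the genotype in N2B27, 12 to 19 (2 to 5 higher, 10 to 14 lower) for the medium in the control, 8 to 23 (1 to 7 higher, 7 to 16 lower) for the medium in the mutant and 0 to 1 (0 higher, 0 to 1 lower) for the interaction. Where the group left 1 mutant ESC array, that array was assumed to vary like the other groups.

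With the replicate number as a block, lower ER calls for the medium in the control went from 1 to 3. Lower calls for the genotype in N2B27 went from 1 to 2, higher calls for the genotype in ESC medium from 2 to 1 and higher calls for the medium in the mutant from 2 to 4. The last 2 comparisons share 2 numbers only, with same-number correlations of 0.0365 and 0.284 and of 0.215 and 0.266. The latter are no lower than those of the medium in the control. With 2 mutant ESC arrays the deviations mirror each other, so no pairing was read from them.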

Other observations

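Within the other ATF4 pathway genes, the enzymes that charge tRNAs with amino acids were mostly lower in N2B27; this grouping was made after the values were seen. Of 10 aminoacyl-tRNA synthetases measured, 7 were called lower in the control (median -0.43) and 6 in the mutant (median -0.36), 5 of them in both genotypes (Cars, Eprs, Nars, Tars and Yars); over all genes 13.3% and 10.3% were called lower, and no test was made of any group here. Tars, for threonine, fell by 0.80 and 0.71. Gars (-0.01 and -0.11) and the mitochondrial Nars2 (0.14 and -0.05) were not called. None of the 10 was called between genotypes by limma in either medium.

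The subunits of eIF2B, the exchange factor that phosphorylated eIF2 inhibits, also fell in part: 3 of 5 were called lower in the control and 4 of 5 in the mutant, with Eif2b1 at -0.68 and -0.76, against the same shares of all genes. Among the 8 subunits of the cytosolic chaperonin that folds actin and tubulin, 3 were called lower in the control (Cct3, Cct6a and Cct8) and 1 in the mutant (Cct6a, -0.40), and the medians were -0.07 and -0.09.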
